A study of Mus musculus with 4 samples.

Results

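Of 3494 Pcbp1 peaks in mouse epiblast-like cells (EpiLC), 780 lay between genes and overlapped no peak called in naive embryonic stem cells, which is 22.3% of the list (95% exact binomial interval 21.0 to 23.7). They were chosen from the deposited peak lists by 3 conditions. The peak lay on chromosomes 1 to 19 or X, outside a region of chromosome 14 between 3 and 8 Mb. It shared no base with a Naive peak. Its summit, the base with the highest coverage, lay outside the body of every RefSeq protein-coding gene and more than 1 kb from either end of one. The EpiLC and Naive peak calls therefore chose the members, and their fold enrichment, width and lack of a Naive overlap are given as descriptions with no test.

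The cells were E14 Tg2a, a mouse embryonic stem cell line, and DNA bound by Pcbp1 was mapped in their naive and primed states by ChIP-seq, the sequencing of chromatin pulled down with an antibody. Naive cells were kept for 3 passages in serum-free medium with LIF, the MEK inhibitor PD0325901 (1 µM) and the GSK3 inhibitor CHIR99021 (3 µM). EpiLC were made from them in 48 h on fibronectin with bFGF (12 ng/ml), Activin A (20 ng/ml) and 1% KOSR, a serum replacement. Each state had 1 ChIP library and 1 input library from this 1 line, with chromatin sheared to about 500 bp, so no value below carries replicate error and no test between the states was possible.

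Pcbp1 is a poly-C-binding protein: its KH domains hold single-stranded C-rich RNA or DNA, and it is also known as a cytosolic iron chaperone. The passage from naive to EpiLC is used as a model of the embryo's epiblast after implantation. The primed genes that come on in it include Fgf5, Otx2, Pou3f1, Dnmt3b and Lef1, and the naive factors are shut down. Sequence between genes holds enhancers, which can act on a gene over long distances, and many genes for long non-coding RNAs. The gene nearest to a peak is given here as a position and is not shown to be its target.

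Most members had no annotated transcript at their summit, and the sequence at the summits could not be read here, since RefSeq start windows were the sequences at hand. A start window holds the 250 bases before and 50 bases after a gene's first base. Of the 780 members, 12 overlapped 14 such windows, all of them of genes that do not code for protein, and 7 had their summit in one. These 7 are printed because they are the members whose summit sequence could be shown. The sequences are RefSeq windows of the mouse build GRCm38 (mm10), read 5′ to 3′ along the transcript, on the plus strand of the chromosome except for Gm34661, which is on the minus strand. Capitals mark runs of 4 or more C or of 4 or more G, that is, a C run on one strand or the other.
Gm51458: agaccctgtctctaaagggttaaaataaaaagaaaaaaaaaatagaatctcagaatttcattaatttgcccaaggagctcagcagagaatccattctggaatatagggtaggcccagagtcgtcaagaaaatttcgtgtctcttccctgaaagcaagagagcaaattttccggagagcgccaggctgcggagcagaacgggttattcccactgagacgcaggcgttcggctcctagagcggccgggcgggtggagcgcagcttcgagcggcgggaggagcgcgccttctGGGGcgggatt
Gm39682: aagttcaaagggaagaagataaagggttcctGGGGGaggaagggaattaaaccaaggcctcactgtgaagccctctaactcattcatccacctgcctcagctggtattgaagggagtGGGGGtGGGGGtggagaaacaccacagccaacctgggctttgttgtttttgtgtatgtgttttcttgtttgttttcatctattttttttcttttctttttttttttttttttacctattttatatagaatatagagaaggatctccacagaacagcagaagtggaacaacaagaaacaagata
Gm6471: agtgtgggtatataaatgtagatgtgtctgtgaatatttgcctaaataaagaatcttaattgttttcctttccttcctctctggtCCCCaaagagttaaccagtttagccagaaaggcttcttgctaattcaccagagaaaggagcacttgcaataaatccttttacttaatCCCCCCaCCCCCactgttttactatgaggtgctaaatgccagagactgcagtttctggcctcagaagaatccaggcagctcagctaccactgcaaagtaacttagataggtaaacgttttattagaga
Gm36223: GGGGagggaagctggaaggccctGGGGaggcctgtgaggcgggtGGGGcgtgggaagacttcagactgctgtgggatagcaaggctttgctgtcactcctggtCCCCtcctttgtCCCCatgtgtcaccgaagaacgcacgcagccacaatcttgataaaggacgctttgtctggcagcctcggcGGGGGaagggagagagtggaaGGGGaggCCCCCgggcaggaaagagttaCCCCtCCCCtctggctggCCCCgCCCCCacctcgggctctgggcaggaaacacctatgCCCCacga
Gm34661: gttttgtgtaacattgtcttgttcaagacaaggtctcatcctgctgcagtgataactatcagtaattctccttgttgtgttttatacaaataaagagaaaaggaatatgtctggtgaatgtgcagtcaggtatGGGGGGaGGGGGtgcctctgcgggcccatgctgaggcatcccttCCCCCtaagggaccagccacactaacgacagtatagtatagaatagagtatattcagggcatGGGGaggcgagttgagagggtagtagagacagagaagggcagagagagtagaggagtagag
Gm30731: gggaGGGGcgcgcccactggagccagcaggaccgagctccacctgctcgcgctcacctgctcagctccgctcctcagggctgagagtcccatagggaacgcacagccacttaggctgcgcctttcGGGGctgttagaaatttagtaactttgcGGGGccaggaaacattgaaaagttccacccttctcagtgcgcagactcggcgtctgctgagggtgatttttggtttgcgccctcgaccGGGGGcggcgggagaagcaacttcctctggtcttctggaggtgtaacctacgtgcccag
Gm40545: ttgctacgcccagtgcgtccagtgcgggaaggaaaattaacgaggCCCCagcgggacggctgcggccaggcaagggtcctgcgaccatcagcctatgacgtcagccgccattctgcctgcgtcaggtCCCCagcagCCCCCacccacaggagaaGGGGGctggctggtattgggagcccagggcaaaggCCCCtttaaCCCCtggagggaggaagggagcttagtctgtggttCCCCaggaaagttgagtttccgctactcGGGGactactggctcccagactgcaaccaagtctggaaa

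All 7 windows belong to long non-coding RNA genes. The window of Gm51458 (chr7:127636864-127637163) lay wholly inside the member next to Zfp629, with a fold of 8.29 and 1 run of 4 or more. Gm39682 (chr1:156476309-156476608) lay next to Soat1 at a fold of 7.80, and Gm6471 (chr7:142831006-142831305) nearest to Th, which encodes tyrosine hydroxylase, at 5.07. Gm36223 (chr5:111509028-111509327), nearest to Mn1, had a fold of 4.72 and 13 runs. Gm34661 (chrX:13346489-13346788) lay nearest to Ddx3x, an RNA helicase gene, at 4.13. Gm30731, also named Pnky (chr4:22490298-22490597), lay beside Pou3f2 at 3.37. Gm40545 (chr9:91350916-91351215) lay beside Zic1 at 2.97, with 8 runs. The letters CCCC were found on either strand in 14 of the 14 windows (100%), beside 86.4% of all 32851 start windows. The longer CCCTCCC, which does not contain CCCC, was found in 6 of 14 (42.9%, 17.7 to 71.1), beside 22.0% of all, a share inside that interval. The windows are not separate sites: 3 of the 14, of Gm40545 and A730094K22Rik, overlap the Zic1 member, and these 3 also overlap one another. The median GC content of the 14 windows was 52.8%, beside 52.7%. A match describes these letters and is not a binding site, and the windows cover 12 members only.

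Fold enrichment, the authors' ratio of ChIP coverage to the caller's background at the summit, had a median of 3.52 over the members (quartiles 2.99 and 4.15, range 1.57 to 9.35). It was at least 4 in 245 members, at least 5 in 77 (9.87%) and at least 6 in 27. The median width was 281.5 bp (quartiles 240.0 and 351.5). The coverage at the summit, recovered from the deposited fold and p-value and called the pileup, had a median of 38 (range 23 to 195). Shared intergenic peaks, the 563 EpiLC peaks that met the same rule but overlapped a Naive peak, had a median fold of 3.29 and a median pileup of 49. EpiLC-only peaks had medians of 3.36 at gene ends (346 peaks) and 3.62 in gene bodies (575 peaks). The members' median pileup was the lowest of these 4 groups of EpiLC peaks (49, 40 and 40 in the others), and their median fold lay within the range of the others.

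The Naive list was the longer one, with 12132 peaks, and the EpiLC library the one with the higher background. The genome-wide background, the lowest in a list, was 1.86 times as high in EpiLC as in Naive (7.43 against 4.004), so a site with the same fold rested on fewer counts in Naive. A member's lack of a Naive peak does not show that Pcbp1 did not bind that site in naive cells. The local background of a member was a median of 1.34 times the genome-wide one, beside 1.92 for shared intergenic peaks and 1.06 for the 4193 Naive-only intergenic peaks. It was above 2 times in 120 members (15.4%). Those 120 had a median fold of 2.62 and a median pileup of 67, while the other 660 had 3.67 and 36. A high local background went with many reads and a low fold, and the part of depth and local background in the calls was not tested.

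**Figure D1:**
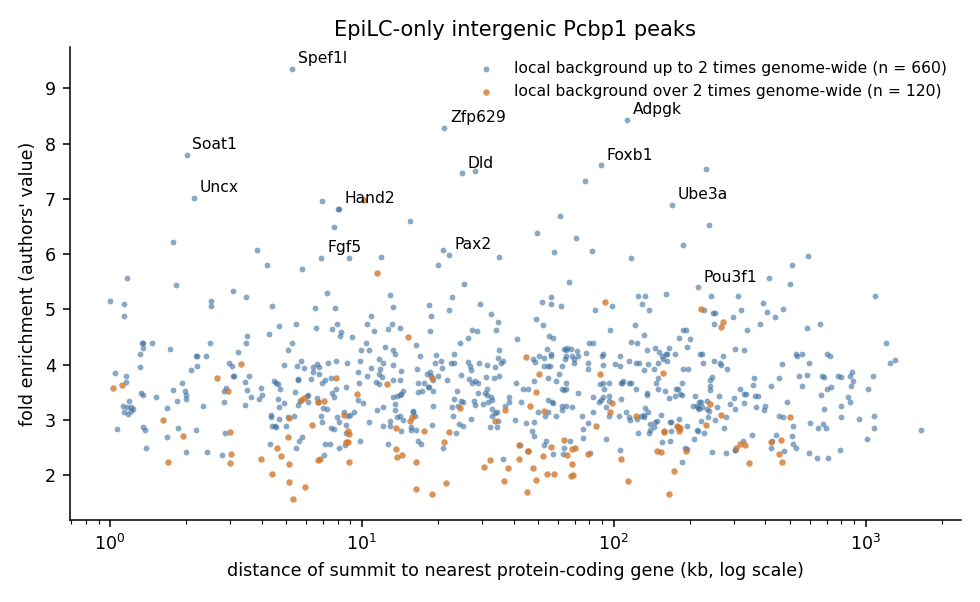
Fold enrichment (the authors' value) of each of the 780 members against the distance of its summit to the nearest protein-coding gene in kb on a log scale. Points are coloured by local background (660 up to 2 times the genome-wide one, 120 above), and the points above 7 span distances from about 2 kb (Soat1, 2.01 kb) to over 200 kb (Psmd7, 232 kb).

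Of the usable EpiLC peaks, 51.1% lacked a Naive overlap. The share was 58.1% (780 of 1343, 55.4 to 60.7) for intergenic summits, 62.2% (59.0 to 65.4) in gene bodies and 32.5% (29.7 to 35.4) at gene ends. Conversely, intergenic summits made up 45.9% of EpiLC-only peaks, 34.5% of shared EpiLC peaks and 40.3% of Naive-only peaks. The Naive peak nearest to a member lay at a median distance of 84.2 kb. It lay within 1 kb of 36 members (4.62%) and within 5 kb of 78 (10.0%), and within 100 kb of 422. The member nearest to a Naive peak lay 14 bp from it (nearest gene Rwdd3, fold 3.30), the next 24 bp (Tecrl, 3.12) and 45 bp (Zc3h15, 3.32). Just outside the rule, the intergenic peaks with the smallest overlaps shared 7, 11 and 24 bp with a Naive peak and had folds of 3.35, 2.95 and 2.93. The folds on either side of this limit overlapped.

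The other threshold was the limit of 1 kb from a gene end. Just inside it lay members beside Hand1 (1001 bp, fold 5.15), Vrtn (1023 bp, 3.57), Mfap2 (1044 bp, 3.86), Gm42517 (1061 bp, 2.84) and Lefty1 (1114 bp, 3.63). Just outside lay EpiLC-only peaks beside Lhx5 (962 bp, 3.22), Asic4 (960 bp, 3.44) and Sox4 (959 bp, 3.64). Hand1, a mesoderm and trophoblast factor, and Lefty1, a Nodal inhibitor, would leave the set under a slightly wider limit.

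The median distance from a member to the nearest protein-coding gene was 40.8 kb (95% interval of the median 32.6 to 50.65), with quartiles of 8.70 and 157 kb. It was 34.2 kb for shared and 26.5 kb (25.2 to 28.1) for Naive-only intergenic peaks. Of the members, 53.2% (49.6 to 56.8) lay within 50 kb of a gene, beside 54.5% of shared and 64.7% (63.2 to 66.2) of Naive-only intergenic peaks. The gene-free interval around a member had a median length of 219 kb, beside 162 kb and 132 kb. The members thus lay in longer gene-free stretches than Naive-only intergenic peaks, with intervals that did not overlap, and at about the same distances as shared ones. Where the strand of the nearest gene was known, 288 of 592 members lay upstream of it (48.6%, 44.6 to 52.8), beside 56.5% (54.8 to 58.3) of Naive-only and 51.9% of shared intergenic peaks.

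**Figure D2:**
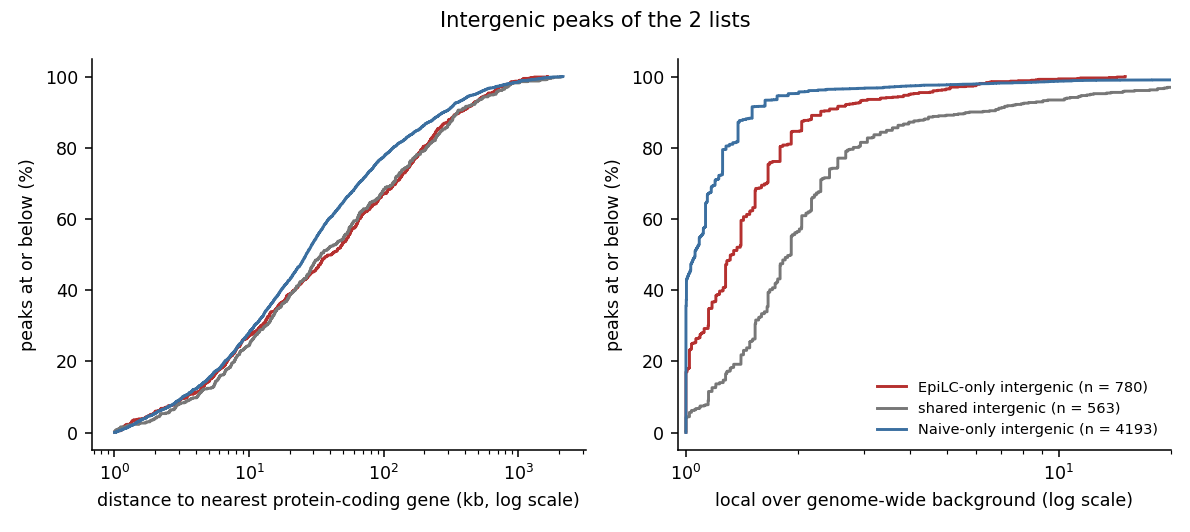
Cumulative share of peaks in percent against the distance to the nearest protein-coding gene in kb (left, log scale) and against the local over the genome-wide background (right, log scale), for EpiLC-only (780), shared (563) and Naive-only (4193) intergenic peaks. On the left the EpiLC-only and shared curves run together and the Naive-only curve is at shorter distances (medians 40.8, 34.2 and 26.5 kb); on the right the EpiLC-only curve lies between the others (medians 1.34, 1.92 and 1.06).

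The farthest members lay over 1 Mb from any protein-coding gene. The farthest had Iftap as its nearest gene (1651 kb, fold 2.82), and the next were nearest to Gpc5 (1307 kb, 4.08), Cdh2 (1250 kb, 4.03), Hace1 (1207 kb, 4.39) and Tenm4 (1094 kb, 5.24). The widest member was 1460 bp long and lay 12.7 kb from Car4, a carbonic anhydrase gene, at a fold of 4.65. The next in width lay nearest to G6pd2 (932 bp, fold 2.56), Fzd7 (733 bp, 3.41), Clint1 (721 bp, 3.14) and Fscb (696 bp, 2.86).

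A summit lay inside a gene not annotated as protein-coding in 139 members (17.8%, 15.2 to 20.7). This share was 18.8% for shared and 18.1% for Naive-only intergenic peaks, so the groups did not differ beyond the counting interval. Long non-coding RNA genes held 120 of the 139 and pseudogenes 14, of which 7 are annotated as transcribed. The 139 members were spread over 116 genes. Snhg14, the long imprinted transcript that runs across Ube3a in neurons, held 16 of them with folds of 2.88 to 6.89. Gm36603, upstream of Lef1, held 3. The immunoglobulin heavy chain locus Igh also held 3, with folds of 3.26 to 4.74. It is annotated as a single unit and is counted here because its annotated type is not protein-coding.

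Named from the top, the member with the highest fold lay in the long non-coding RNA gene Gm16201, 5.30 kb downstream of Spef1l (chromosome 7, 139966810 to 139967216). Its fold was 9.35 (95% Poisson counting interval 7.67 to 11.3) on a pileup of 106. The second lay 112 kb upstream of Adpgk, an ADP-dependent glucokinase gene, at 8.42 (6.59 to 10.6). The third, at the start of Gm51458 and 21.2 kb upstream of Zfp629, had 8.29 (6.68 to 10.2), and Zfp629 itself carried an EpiLC gene-end peak of 7.20. The intervals of these 3 overlapped, so their order is not set by the counts.

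The next members were at the start of Gm39682, 2.01 kb upstream of the cholesterol-esterifying enzyme gene Soat1 (7.80), in Gm31469 with Foxb1, a forkhead factor gene, as nearest gene (7.60), and in Gm42040 near the proteasome subunit gene Psmd7 (7.54). The member 28.0 kb upstream of Errfi1, whose product inhibits the EGF receptor, had 7.51. The member 24.9 kb upstream of Dld had 7.46 (5.97 to 9.21). Dld encodes dihydrolipoamide dehydrogenase, a subunit of the glycine cleavage system and of several 2-oxoacid dehydrogenases, and was the 1 gene of 28 in the serine, glycine and one-carbon list (3.57%) that was nearest to a member, a share near that of all protein-coding genes (2.97%). The remaining members of the first 15 were nearest to 1700001O22Rik (7.32, in Gm14488), Uncx (7.02), Irf2bpl (6.98), Ttll6 (6.96), Ube3a (6.89, in Snhg14), Hand2 (6.82, in Hand2os1) and Rpl29 (6.82, in Gm33616). Naive peaks lay close to 3 of the 15, at 0.200 kb for 1700001O22Rik, 0.743 kb for Errfi1 and 1.56 kb for Foxb1. The other 12 lay at least 8.06 kb from a Naive peak, and the lowest of these gaps was the one at Rpl29.

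The members had 643 different nearest genes, which is 2.97% of the 21627 protein-coding genes on these chromosomes. Naive-only intergenic peaks had 2615 (12.1%) and shared ones 463 (2.14%). Of the 643, 570 were nearest to 1 member and 25 to 3 or more. The spacing of genes moved with these counts: the gene-free sequence flanking a gene had a median of 302 kb for the 643, 159 kb for the neighbours of Naive-only intergenic peaks and 37.0 kb for all genes. The part of this spacing in the list counts below was not tested. Among the lists the median flank was 503 kb for the Tfap2, Irx, Zic and Six3 families. It was 288 kb for fibroblast, 270 kb for neuroectoderm and 155 kb for 2-cell-like genes. It was 121 kb for naive pluripotency, 116 kb for adhesion, 109 kb for primed pluripotency and 108 kb for trophectoderm, and between 16.7 and 104 kb for the other 13 lists.

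Among the neighbours of members, 35 of 643 (5.44%, 3.82 to 7.49) also had an EpiLC gene-end peak without a Naive overlap. The share was 1.68% of all protein-coding genes and 1.95% (1.46 to 2.56) of the neighbours of Naive-only intergenic peaks. It was 3.89% (2.32 to 6.07) of the neighbours of shared ones, an interval that overlapped that of the members. An EpiLC gene-end peak of either kind was found at 8.40% (6.37 to 10.8) of the members' neighbours and 5.59% of all genes. It was found at 9.29% (6.80 to 12.3) of the neighbours of shared intergenic peaks and 6.46% of those of Naive-only ones, so this share was not particular to the members. A Naive gene-end peak was found at 14.5% (11.8 to 17.4) of them, beside 19.5% of all genes and 23.6% of the neighbours of Naive-only intergenic peaks. Against all genes, the share with an EpiLC gene-end peak was higher among the members' neighbours and the share with a Naive gene-end peak was lower, each by more than the counting interval. The EpiLC gene-end peaks and the members came from the same library.

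In the neuroectoderm list, transcription factors and other genes that mark the early neural plate, 11 of 27 genes (40.7%) were nearest to a member, beside 2.97% of all genes. They had 14 members with a median fold of 3.11 at a median distance of 7.74 kb. Naive-only intergenic peaks were nearest to 6 of the 27 (22.2%, beside 12.1% of all genes). Counted by a member within 50 kb, the list had 12 of 27, beside 3.74% of all genes. Pax2, a paired-box factor of the kidney, eye and midbrain-hindbrain, had 4 members, all upstream, at 5.98 (4.55 to 7.74), 2.88, 2.76 and 2.62. The peak of 5.98 (chromosome 19, 44724194 to 44724702) lay 22.1 kb upstream, and its interval did not overlap those of the other 3.

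The linked homeobox genes Dlx5 and Dlx6 each had 1 member, at 4.52 (3.49 kb away) and at 3.98 (2.21 kb away, in Dlx6os1), with the nearest Naive peak over 150 kb off (152 and 156 kb). Irx3 had 1 at 3.72, but 241 kb upstream. The members of Lhx2 (3.36), En2 (3.32), Meis2 (3.14), Sox1 (3.08, in Sox1ot), Gbx2 (3.03), Zic1 (2.97) and Six3 (2.36, in Six3os1) lay between 2.79 and 9.63 kb from their genes. Zic1 and Six3 also had EpiLC gene-end peaks, of 4.15 and 3.88, and Dlx5 had one of 3.14. Dlx5, Zic1 and Six3 had no Naive gene-end peak, while Meis2 had one, of 3.08, and no EpiLC one. The Zic1 member lay 1102 kb from any Naive peak.

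In the primed pluripotency list, 9 of 31 genes (29.0%) were nearest to a member, with 17 members and a median fold of 3.79, beside 2.97% of all genes. Naive-only intergenic peaks were nearest to 11 of the 31 (35.5%, beside 12.1% of all genes). The primed markers Otx2, Dnmt3a, Dnmt3b, Sall2, Zic2, Zic5, Fgf15 and Pim2 were not the nearest gene of any member. Counted by a member within 50 kb in place of the nearest gene, the list had 6 of 31, beside 3.74% of all genes. Of the 9 genes nearest to a member, 5 had one within 50 kb. Fgf5, the secreted growth factor that defines this state, had 2 members downstream. The stronger (chromosome 5, 98283740 to 98284166) lay 6.90 kb past the gene at a fold of 5.93 (4.42 to 7.80) on a pileup of 49, and the other lay 16.5 kb past it at 3.91 (2.71 to 5.48). The nearest Naive peak was 294 kb from the first. Fgf5 also had an EpiLC gene-end peak of 3.44.

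Pou3f1, the POU factor known as Oct6, had 3 members: 5.40 (4.23 to 6.79) at 216 kb, 3.26 at 62.2 kb and 3.24 at 213 kb, beside a gene-end peak of 4.37. Lef1, a Wnt-pathway transcription factor, had 3 members within 7.90 kb upstream, all inside Gm36603, at 3.77 (2.89 to 4.83), 3.27 and 2.22, while neither list had a gene-end peak at it. The local background there was a median of 2.04 times the genome-wide one, and the nearest Naive peak was over 200 kb away (215 to 220 kb). Other primed genes nearest to a member were Spry4 (4.33, 12.3 kb) and Spry2 (4.19, 161 kb), inhibitors of Fgf signalling, Sox4 (4.09, 63.7 kb, in 2610307P16Rik), the N-cadherin gene Cdh2 (4.03 and 3.56, both over 1 Mb away) and the keratin gene Krt18 (3.53, 2.83 kb). Spry4 also had a Naive gene-end peak, of 4.55. Of the 9 primed genes nearest to a member, 4 were also nearest to a Naive-only intergenic peak: Pou3f1, Sox4, Spry2 and Cdh2. Spry2 had 3 Naive-only intergenic peaks and no member within 50 kb.

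**Figure D3:**
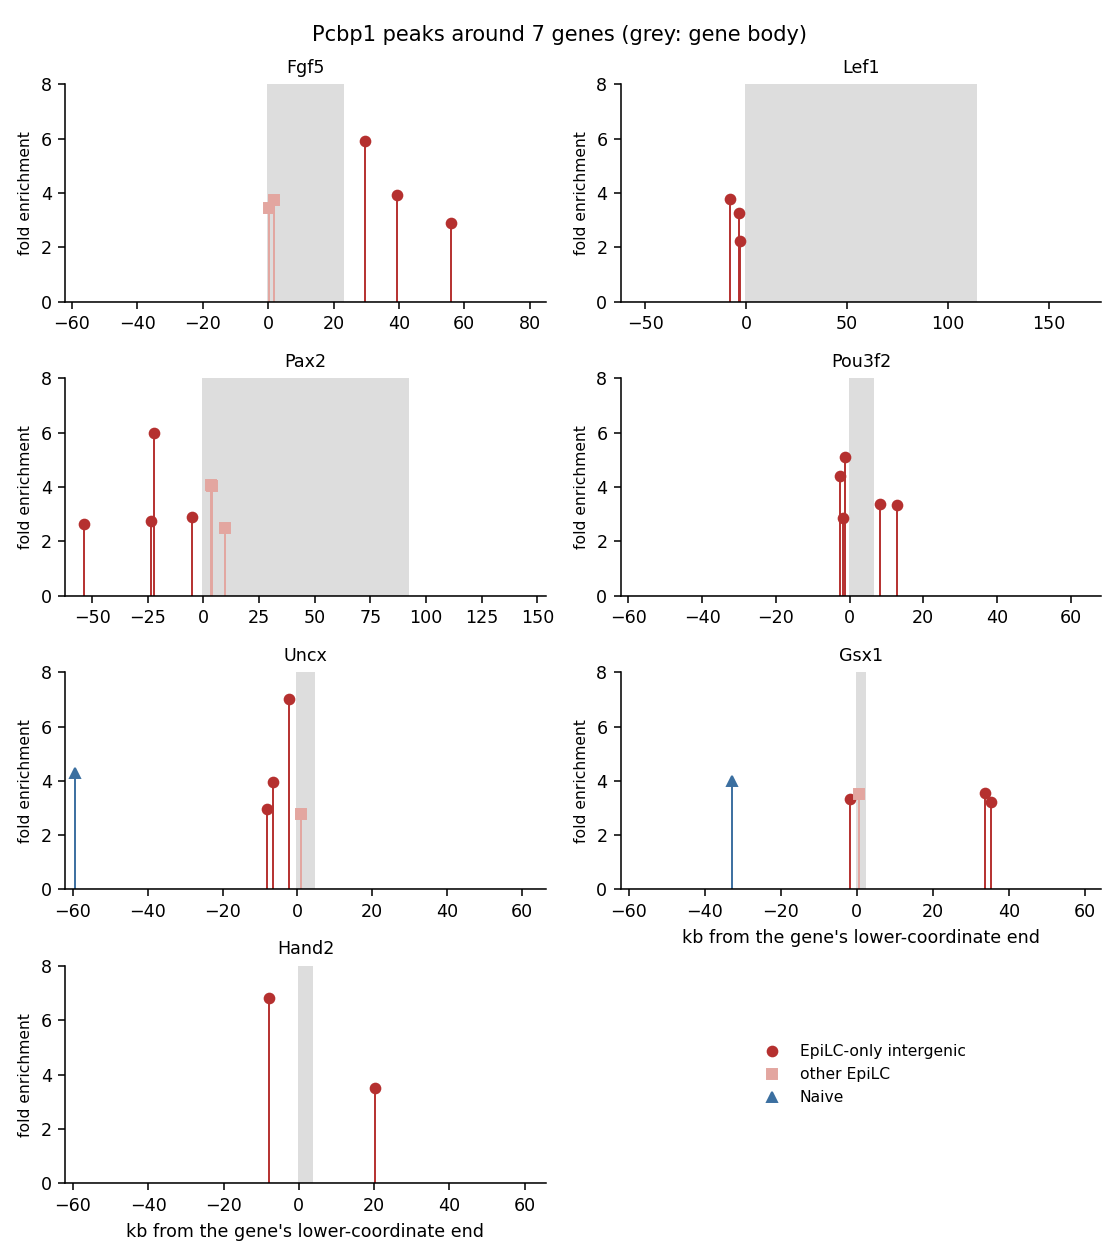
Fold enrichment of peaks by distance in kb from the lower-coordinate end of 7 genes, out to 60 kb on either side, with the gene body in grey: members as red circles, other EpiLC peaks as pale squares and Naive peaks as blue triangles. No Naive peak lies in the panels of Fgf5, Lef1, Pax2, Pou3f2 and Hand2, and 1 each in those of Uncx and Gsx1; the 7 genes were picked after their values were seen.

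The naive pluripotency list had 3 of 24 genes (12.5%, beside 2.97% of all genes). Naive-only intergenic peaks were nearest to 19 of the 24 (79.2%, beside 12.1% of all genes). The 3 were Pecam1, an adhesion molecule gene (4.74 at 10.5 kb and 3.08 at 16.2 kb), the homeobox gene Gbx2 (3.03), which is also in the neuroectoderm list, and the orphan nuclear receptor gene Nr5a2 (2.47, 196 kb upstream). No gene of the core pluripotency list (17 genes, with Pou5f1 and Sox2) was nearest to a member. Within 50 kb of a member lay 1 of them, beside 3.74% of all genes. Naive-only intergenic peaks were nearest to 6 of the 17 (35.3%). In a list this short a count of 0 cannot be told from the 2.97% of all genes.

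The signalling and lineage lists that follow are read against the same shares of all genes, 2.97% for members and 12.1% for Naive-only peaks. Of the Fgf and ERK genes, 4 of 32 (12.5%) were nearest to a member, namely Fgf5, Spry2, Spry4 and the ERK phosphatase gene Dusp4 (4.03, 265 kb away). Naive-only intergenic peaks were nearest to 11 of the 32 (34.4%). For Wnt signalling the count was 5 of 32 (15.6%), beside 13 (40.6%) for Naive-only peaks. Apart from Lef1 these were Sp8, a zinc finger factor (3.98), the secreted Wnt antagonist Sfrp1 (3.49) and the receptors Fzd7 (3.41) and Fzd2 (3.08). Sfrp1 and Fzd7 also had Naive gene-end peaks, of 3.53 and 2.76, and a Naive peak lay 0.520 kb from the Sfrp1 member. For Nodal and Bmp signalling the count was 3 of 30 (10.0%), beside 14 (46.7%) for Naive-only peaks: Lefty1 (3.63), the Smad corepressor gene Skil (3.21) and the inhibitory Smad gene Smad7 (2.92). Lefty1 and Smad7 lay on local backgrounds above 2 times the genome-wide one (2.35 and 2.17), and 1 of the 3 genes, Skil, stayed in the count without such members. Smad7 had gene-end peaks in both lists (3.15 in EpiLC, 3.63 in Naive), and Lefty1 had one in EpiLC (2.33).

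Mesoderm had 3 of 22 genes (13.6%), beside 7 (31.8%) for Naive-only peaks. Hand2, a helix-loop-helix factor of the heart and limb, had 3 members. The first of them (chromosome 8, 57312693 to 57313170) lay 8.05 kb upstream in Hand2os1 at 6.82 (5.50 to 8.37). Another lay 16.8 kb downstream in Hdnr at 3.51 (2.52 to 4.77), and the last lay 281 kb upstream at 3.91. Hand1 had 1 member (5.15, 3.89 to 6.69) and Twist1 1 (3.20). Neither list had a gene-end peak at any of these 3 genes. Trophectoderm had 4 of 14 genes (28.6%), the same number as for Naive-only peaks: Hand1, Krt18, Tfap2a (4.70, 4.69 kb downstream) and Gata3 (2.86, 644 kb downstream). Endoderm had 2 of 18 (11.1%), with Dab2 (3.23) at 365 kb and Sox17 (2.38) at 62.7 kb, and the Sox17 member lay 0.208 kb from a Naive peak. The list of the Tfap2, Irx, Zic and Six3 families, with Six3 itself in it, had 6 of 22 (27.3%), beside 8 (36.4%) for Naive-only peaks. Irx5 (4.20) and Irx1 (4.19) were the nearest genes of members 224 and 527 kb away.

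The list of adhesion and epithelial-mesenchymal genes had 4 of 19 (21.1%), beside 7 (36.8%) for Naive-only peaks. These were Cdh2, Krt18 and Twist1, given above, and the epithelial adhesion gene Epcam (4.05, 26.4 kb upstream).

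Of the control lists, ribosomal protein genes had 4 of 77 (5.19%) and olfactory receptor genes 9 of 1110 (0.811%). Within 50 kb of a member lay 29 of the 1110 olfactory receptor genes and 2 of the 77 ribosomal protein genes, beside 3.74% of all genes. No gene of the liver and muscle (24 genes), DNA methylation (15) or 2-cell-like (11) lists was nearest to a member, and these lists are too short to tell 0 from 2.97%. Fibroblast genes, which mark another cell type, had 1 of 12 (8.33%), Col1a2 (3.15). Genes of poly-C-binding proteins and iron handling had 2 of 18 (11.1%), among them Ireb2 (4.48), an iron-responsive RNA-binding protein. Amino acid transporters had 1 of 30 (3.33%), near the share of all genes, with the glutamate transporter gene Slc1a3 (3.73 and 3.49). Leaving out the 120 members of high local background left the primed count at 9, the neuroectoderm count at 10 and the naive count at 2, with 571 nearest genes in all.

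**Figure D4:**
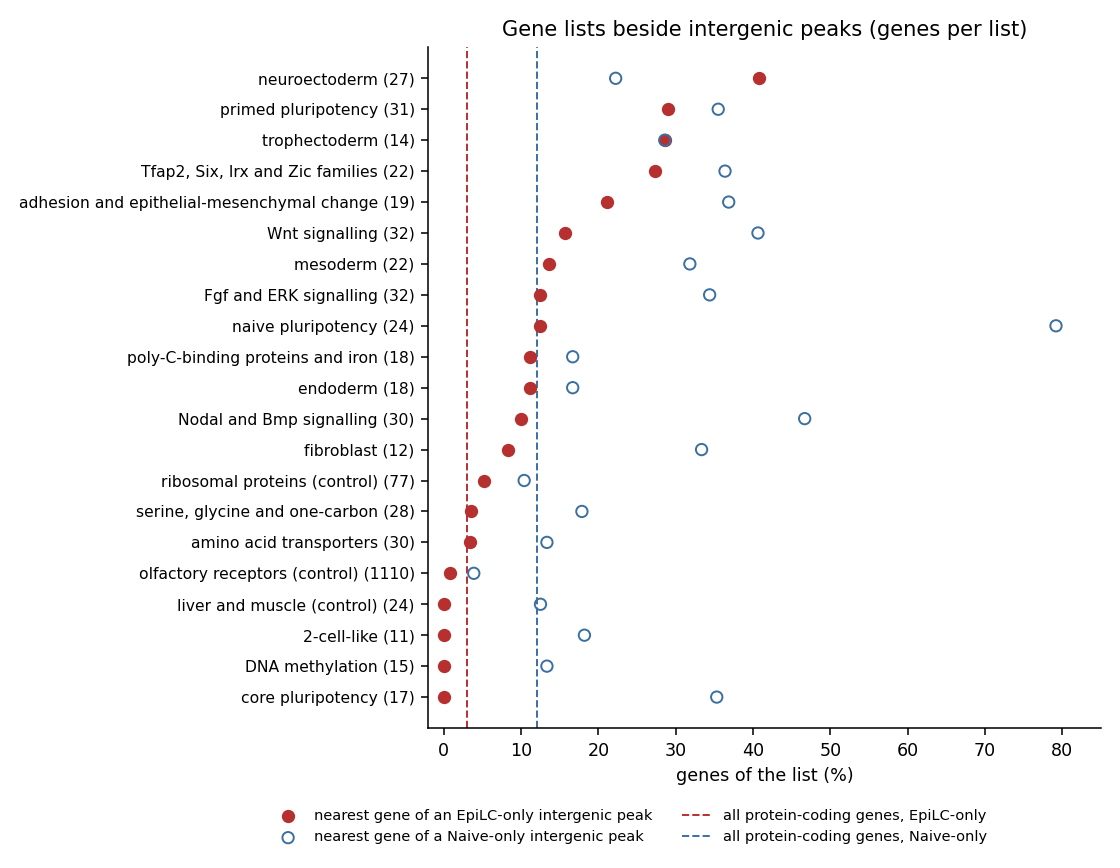
Percent of the genes of each list that were the nearest protein-coding gene of at least 1 EpiLC-only (filled) or Naive-only (open) intergenic peak, with the same percentages over all protein-coding genes as dashed lines (2.97 and 12.1). The number of genes in a list is in brackets. Filled points run from 40.7% for neuroectoderm to 0 for 4 lists, and the open point for naive pluripotency stands at 79.2%.

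Members were mostly single. Another member lay within 50 kb of the summit in 160 of 780 (20.5%), beside 51.8% of Naive-only and 24.2% of shared intergenic peaks, a comparison in which the Naive-only group is larger. Chains of 3 or more members with gaps of at most 50 kb numbered 20 and held 90 members. In 12 of the 20, with 57 members, the median local background was above 2 times the genome-wide one. The longest of these, between Hrh1 and Atg7 on chromosome 6, had 16 members over 130 kb at a median local background of 5.36 times, with folds of 1.69 to 3.26. Snhg14 held 4 chains with 16 members on chromosome 7. The nearest genes of the other chains of this kind included 9530057J20Rik, Gm40469 and Gm21119 on chromosome 8, Gm5458 on chromosome 14, Olfr161 on chromosome 16 (2 chains) and Lef1.

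The other 8 chains, with 33 members, lay on a local background of at most 1.66 times the genome-wide one. Spin4 on chromosome X had 9 members within 37.1 kb, between 107 and 144 kb downstream, with folds of 2.82 to 4.72. Pou3f2, a POU factor of the nervous system known as Brn2, had 5 members within 15.5 kb, with 3 just downstream (5.10, 4.39 and 2.85) and 2 upstream (3.37 and 3.33), and a sixth 509 kb upstream at 5.81 (4.32 to 7.67). No Naive peak lay within 150 kb of any of the 6, and neither list had a gene-end peak at Pou3f2. Pax2 had 4 members over 48.8 kb. Uncx, a homeobox factor of the somites and brain, had 3 upstream, at 7.02 (5.45 to 8.90), 3.96 and 2.96. Gsx1, a homeobox factor of the ventral forebrain, had 3.56, 3.35 and 3.20. Chains of 3 members each also lay at Fgf5 and its neighbour Cfap299 and between 124 and 181.5 kb from Ncam1, a neural adhesion molecule gene. The genes Fgf5, Gsx1, Pax2, Pou3f2 and Uncx at these chains encode transcription factors or growth factors of development. This grouping was made after the values were seen and leaves out Spin4, Cfap299 and Ncam1. The share of such genes among all nearest genes was not counted.

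Chromosome X held 54 members (6.92%, 5.24 to 8.94). The share was 3.54% of all usable EpiLC peaks and 1.57% of all usable Naive peaks. It was 4.62% (3.04 to 6.69) of shared and 2.12% (1.71 to 2.61) of Naive-only intergenic peaks. The members' interval overlapped that of the shared peaks. Of the 54, 11 had Spin4 as nearest gene and 43 did not. Chromosome 8 held 66 members (8.46%, 6.60 to 10.6), beside 4.80% (3.18 to 6.90) of shared and 5.10% of Naive-only intergenic peaks. On it lay 3 of the high-background chains.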

How the data were processed

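The authors deposited 1 narrowPeak list per state, and each state had 1 ChIP library per the labels. A list was taken for the ChIP library of the state that its peak names carry. The build was GRCm38 (mm10) and the tools MACS2, Bowtie2, fastp and Picard, per the submitters' processing notes, which give no versions or roles. The sources used here do not say which control MACS2 was given. The deposited fold is a ratio of the summit's coverage to the background that the caller estimated. The deposited −log10 p-values and −log10 q-values are the authors' values per peak. The other deposited column used is the summit's offset within its peak in bp. The deposited integer score was not used.

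Pileups were solved from fold = (pileup + 1) / (background + 1) and the Poisson probability of a larger pileup. For 780 of 780 members 1 whole-number pileup matched the deposited −log10 p within 0.001. The matched pileup gave each fold its 95% Poisson interval. Shares have exact binomial intervals. Both cover counting error only. Overlap meant at least 1 shared base. Genes came from the RefSeq table of GRCm38.p6, 21627 protein-coding genes on chromosomes 1 to 19 and X, without strand. Strand was taken from the RefSeq start windows where a gene had one, which gave a side for 592 members.

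Named in the text are the 15 members of highest fold, members next to genes of the pluripotency, signalling and lineage lists, the chains of 3 or more, the 5 widest, the 5 farthest from a gene and the 5 nearest the 1 kb limit. The planned reading of sequence at summits needed a genome and was replaced by RefSeq start windows. All 21 gene lists and the members were chosen with earlier results of these data known, so no count is independent support. Results for some genes named by this rule are not reported here. All list symbols but 1, Dux, were matched. Alternatives were a −log10 q of at least 5, a fold of at least 4, other overlap, gene-end and distance limits, all annotated genes, and, chosen after seeing the data, a local background of at most 2 times the genome-wide one. The code used scipy 1.17.1, matplotlib 3.10.9, pandas 2.3.3 and numpy 2.4.6 in Python 3.11.15 and was tested on simulated data.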

Additional observations from a re-analysis of the deposited data

How the results depend on the processing

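With a fold of at least 4 the set held 245 members, with a median fold of 4.53, width of 302 bp and pileup of 43, of which 20 had another within 50 kb and 6 primed genes, in place of 9, were nearest to one, and 61.6% of intergenic EpiLC peaks lacked a Naive overlap. The rise of the fold follows from the limit itself. A −log10 q of at least 5 gave a median fold of 3.79 and pileup of 41. More than 5 kb from every gene end, the median distance was 58.1 kb and 45.4% lay within 50 kb, by construction. Windows of 20 and 100 kb gave 38.8% and 67.1%. Counting an overlap of at least 50% of the EpiLC peak as shared gave 62.5% without one. With all annotated genes in the rule, 99 members had another within 50 kb, and the share in non-coding genes has no value there. With a local background of at most 2 times the genome-wide one, which was chosen after seeing the data, the median fold was 3.67 and the pileup 36, 95 members had another within 50 kb, and 67.5% lacked a Naive overlap. The cause of these shifts was not tested. In the remaining 56 recomputed values the result stayed within its interval or moved by at most 1.5 times, as the primed count did when counted by a member within 50 kb (6).

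Each state had 1 library, so no value has replicate error, and no paired analysis was possible because each group had 1 sample. The Naive library had the lower background (4.004 against 7.43). The lowest −log10 q in the EpiLC list was 2.02.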
